A study of Homo sapiens with 12 samples.

Results

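The miR-130/miR-301/miR-454 family was described here in small RNA sequencing of pancreatic ductal adenocarcinoma (PDAC) cells with and without knockdown of MYEOV. The family was taken as 8 mature miRNAs, namely the 5 guides from the 3p arm that carry one common seed (hsa-mir-130a-3p, hsa-mir-130b-3p, hsa-mir-301a-3p, hsa-mir-301b-3p and hsa-mir-454-3p) and the partner strands of 3 of them (hsa-mir-130b-5p, hsa-mir-301a-5p and hsa-mir-454-5p). All 8 had a count in at least 1 library, out of 1733 miRNAs listed in any library. The 12 libraries came from 2 established human lines of this cancer. For AsPC-1 there were 3 control libraries and 3 labelled si-MYEOV, and the same held for PANC-1, all prepared 48 h after siRNA transfection according to the sample labels. The methods name a shorter interval. The control libraries are described in the labels as untreated, whereas the protocol lists a negative-control siRNA. If the controls were untreated, transfection and MYEOV knockdown cannot be told apart. The protocol names 2 MYEOV siRNAs and the knockdown titles carry the numbers 1 to 3, so a number could stand for an siRNA or for a repeat. AsPC-1 cells were grown in RPMI 1640 and PANC-1 cells in DMEM, so cell line and medium cannot be told apart. MYEOV mRNA was not measured in these libraries, and the depth of knockdown was therefore not checked here. The paper measured MYEOV in knockdown cells by qPCR and Western blot, and reports it as downregulated in its mRNA sequencing. Nothing in the labels says that libraries of a group came from separate cultures, and p-values then measure only the spread between these samples, which may be technical.

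A miRNA is cut from a hairpin RNA by Drosha and Dicer, and 1 strand of the resulting duplex is loaded into Argonaute as the guide while the other, the passenger, is mostly lost. The seed, bases 2 to 8 of the guide, pairs with messenger RNAs and largely sets which of them are repressed, so guides with the same seed share many targets. Members of this family have been studied as regulators of TGF-beta signalling and hypoxia responses in tumours. Because the 5 guides come from hairpins in several genomic places, the amount of this seed in a cell is the sum of several transcription units.

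The mature sequences show what unites the guides and what separates them. The RefSeq table used here (GRCh38.p14) held the mature sequences of 7 of the 8 members, all but hsa-mir-130a-3p. They are shown 5′ to 3′ with bases 2 to 8 in capitals, guides first.
hsa-mir-130b-3p: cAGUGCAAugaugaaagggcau
hsa-mir-301a-3p: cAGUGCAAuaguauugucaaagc
hsa-mir-301b-3p: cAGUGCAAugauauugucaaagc
hsa-mir-454-3p: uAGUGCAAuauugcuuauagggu
hsa-mir-130b-5p: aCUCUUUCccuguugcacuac
hsa-mir-301a-5p: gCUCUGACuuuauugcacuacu
hsa-mir-454-5p: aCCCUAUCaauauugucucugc
The 4 guides with a sequence shared the seed AGUGCAA, which 2 other entries among the 2370 mature miRNAs of the table also carried (hsa-mir-3666 and hsa-mir-4295). hsa-mir-301a-3p and hsa-mir-301b-3p differed only at A10G and G11A, with positions counted from 1 at the 5′ end and the base of hsa-mir-301a-3p given first. The methods kept reads of 18 to 28 nt that began within 3 nt of the annotated 5′ end, and such reads cover both positions. The other pairs of guides differed at 9 to 12 positions. The 3 partner strands had 3 different seeds, so they belong to the family by hairpin and not by seed.

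The partner strands were also compared with the reverse complement of the family seed, UUGCACU, shown in capitals.
hsa-mir-130b-5p: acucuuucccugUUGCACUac
hsa-mir-301a-5p: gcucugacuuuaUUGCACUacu
hsa-mir-454-5p: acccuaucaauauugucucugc
The 7 letters began at base 13 of hsa-mir-130b-5p and of hsa-mir-301a-5p. They were not in hsa-mir-454-5p. Of the 2370 miRNAs in the table, 8 held them (0.338%). In the hairpin, these letters lie opposite the seed of the guide. The hairpins are given because the balance of their arms is described below, with the 5p strand and then the 3p strand in capitals.
MIR130B: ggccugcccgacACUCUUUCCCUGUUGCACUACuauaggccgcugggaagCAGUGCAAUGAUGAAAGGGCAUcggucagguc
MIR301A: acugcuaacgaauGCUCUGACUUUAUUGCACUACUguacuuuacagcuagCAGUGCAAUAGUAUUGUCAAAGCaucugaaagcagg
MIR454: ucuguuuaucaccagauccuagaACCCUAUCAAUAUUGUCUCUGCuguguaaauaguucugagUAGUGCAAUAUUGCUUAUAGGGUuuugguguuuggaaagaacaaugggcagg

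The 5 hairpins lie in 3 genomic places (GRCh37, GENCODE). MIR454 (chr17:57215119-57215233) and MIR301A (chr17:57228497-57228582) are on the minus strand, 13263 bp apart, both in intron 1 of transcript SKA2-201 of SKA2, a protein-coding gene for a subunit of the spindle and kinetochore complex. Neither overlaps an exon of any of the 10 SKA2 transcripts that span it. MIR301B (chr22:22007270-22007347) and MIR130B (chr22:22007593-22007674) are on the plus strand, 245 bp apart, within the long noncoding RNA gene ENSG00000207751. MIR301B is in intron 1 of transcript ENST00000498589, and MIR130B overlaps exons of 2 of the 3 transcripts that span it. MIR130A (chr11:57408671-57408759) stands alone on the plus strand, in intron 1 of transcript MIR130AHG-205 of its long noncoding host gene MIR130AHG.

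The libraries held between 3805084 and 7311783 miRNA counts, and a count of 0 in a library allows up to 0.410 to 0.788 CPM (the count divided by the size of its library, on a fixed scale), an upper limit set at 3 counts. Intervals and limits on counts cover counting error only. The 8 members made up 0.0489% to 0.0774% of a library. No 2 libraries of a group agreed within sampling noise, and control replicate 1 of AsPC-1 stood apart, with a chi-square per degree of freedom of 277 and 225 against the other controls, which differed from each other by 26.9. The 5 epithelial miRNAs checked (the miR-200 family) summed to 48678 to 52667 CPM in AsPC-1 and to 212 to 276 CPM in PANC-1, where miR-141-3p had at most 3 counts. The 11 miRNAs checked as marks of other cell types summed to 1518 to 1829 CPM in AsPC-1 and 1325 to 1597 CPM in PANC-1, nearly all of it the endothelial miR-126-3p (1505 to 1819 and 1177 to 1447 CPM). Of the others, miR-1-3p of muscle was at 0.547 to 1.54 CPM in AsPC-1 and 124 to 173 CPM in PANC-1, and miR-375 of islets at 0.619 to 2.19 and 5.54 to 12.1 CPM. Among blood markers, miR-223-3p had at most 1 count in any library, miR-142-3p had 2 to 9 counts in AsPC-1 and at most 1 in PANC-1, and erythroid miR-451a had 8 to 24 counts in AsPC-1 libraries and at most 9 in those of PANC-1. miR-122-5p of hepatocytes was at 4.49 to 10.8 CPM in AsPC-1 and 2.38 to 5.27 CPM in PANC-1. The part of these markers in the results was not tested. In cultures of this kind, fewer cells with a miRNA and less of it per cell cannot be told apart.

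In AsPC-1 controls the family was led by 1 guide and 1 partner strand from different chromosomes. Levels are CPM scaled with TMM factors within a cell line, for miRNAs of 21 to 23 nt, given as mean ± SD (n = 3). hsa-mir-454-3p was at 223 ± 6.80 CPM and hsa-mir-130b-5p at 190 ± 28.2 CPM, ranking 128 and 136 among the 1319 miRNAs listed in AsPC-1. The next levels were hsa-mir-130b-3p at 39.7 ± 5.95, hsa-mir-301a-5p at 25.8 ± 2.43 and hsa-mir-454-5p at 12.1 ± 1.12 CPM. The ranges of neighbours in this order did not overlap, down to the lowest pair with counts in every library, hsa-mir-301b-3p (9.53 ± 1.28 CPM) and hsa-mir-301a-3p (7.84 ± 1.31 CPM), which did overlap.

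In PANC-1 controls the order was different. The partner strand hsa-mir-130b-5p was highest at 344 ± 32.1 CPM, followed by hsa-mir-454-3p at 184 ± 5.12 CPM, which ranked 143 and 182 among the 1374 miRNAs listed in PANC-1. hsa-mir-301a-5p followed at 52.5 ± 9.19, hsa-mir-130a-3p at 43.5 ± 3.05, hsa-mir-130b-3p at 33.4 ± 5.40 and hsa-mir-301b-3p at 24.1 ± 3.48 CPM. The lowest pair, hsa-mir-301a-3p (13.5 ± 4.28 CPM) and hsa-mir-454-5p (13.2 ± 0.883 CPM), overlapped, and the other neighbours did not. Within the SKA2 intron, hsa-mir-454-3p was thus far above hsa-mir-301a-3p in both lines. Capture of a miRNA during library preparation differs between sequences, which limits any comparison of levels between miRNAs.

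**Figure D1:**
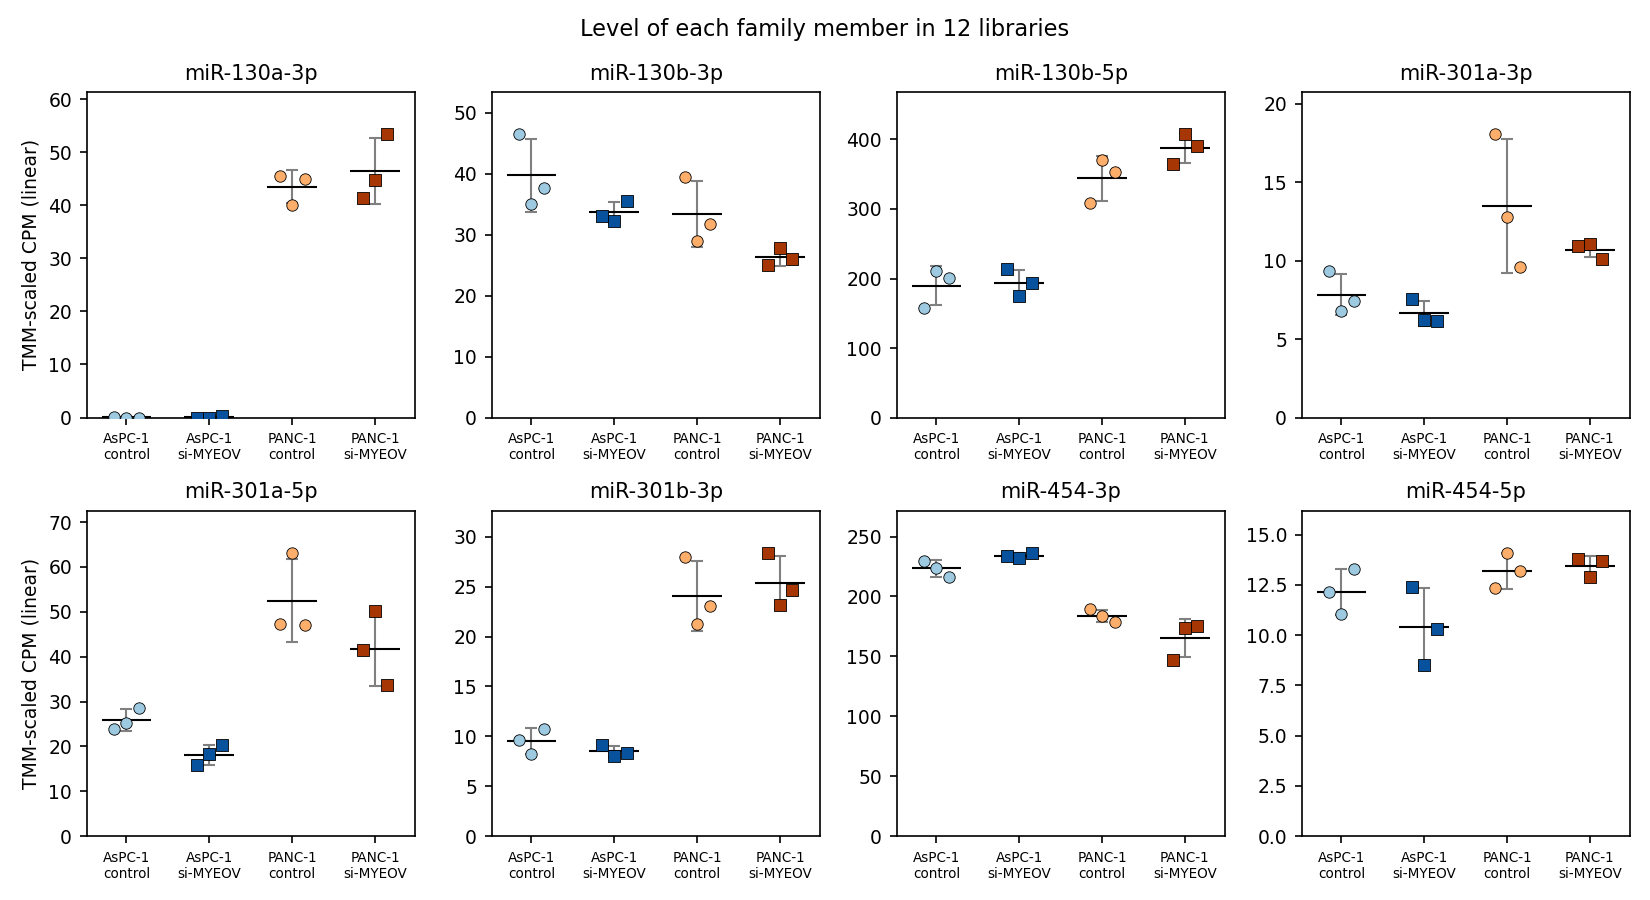
Level of the 8 members in 12 libraries, one panel per miRNA, with TMM-scaled CPM on a linear axis from 0, points for libraries, bars for the mean and grey error bars for the SD (n = 3). miR-130a-3p lies at or near 0 in the 6 AsPC-1 libraries and between 40.0 and 53.3 CPM in the 6 PANC-1 libraries, while miR-301a-5p in AsPC-1 shows lower knockdown points than control points.

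hsa-mir-130a-3p, the guide of the lone chromosome 11 hairpin, was the member that separated the lines most widely. Its counts in AsPC-1 were 1, 0 and 0 in the controls and 0, 0 and 2 in the si-MYEOV libraries. In PANC-1 they were 207, 213 and 174 in the controls and 159, 170 and 242 in the si-MYEOV libraries. Every PANC-1 library was thus far above every AsPC-1 library, all of which were below the 3-count limit. Pooled over the controls, 594 of 13053322 counts in PANC-1 stood against 1 of 20919811 in AsPC-1, a ratio of 952 with an exact counting interval of 170 to 37663. In the si-MYEOV libraries the ratio was 387 (107 to 3202), from 571 and 2 counts. Because AsPC-1 was at or below the limit, no fitted fold change is given.

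The other members differed between the lines by much less, and in both directions. On the scale of the control libraries alone, hsa-mir-454-3p was at 264, 252 and 240 CPM in AsPC-1 and 175, 172 and 168 CPM in PANC-1. hsa-mir-301b-3p was at 11.05, 9.25 and 11.97 CPM in AsPC-1 and 25.9, 19.9 and 21.6 CPM in PANC-1. Neither pair of groups overlapped, and the direction was opposite for these 2 guides. In the quasi-likelihood test of edgeR, with p-values adjusted by Benjamini-Hochberg (BH) over 627 miRNAs, 5 of the 7 other members passed an adjusted p of 0.05, against 82.8% of all miRNAs tested. The control groups did not overlap for the same 5, against 82.1% of all, so neither share stood above the background. hsa-mir-130a-3p entered this test only through its PANC-1 counts, so it had to differ, and it is left out of both counts.

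Higher in AsPC-1 controls were hsa-mir-454-3p (log2 fold change (LFC) 0.55, SE 0.10, adjusted p = 0.000105) and hsa-mir-130b-3p (LFC 0.53, SE 0.16, adjusted p = 0.00785). Lower in AsPC-1 controls were hsa-mir-301b-3p (LFC -1.06, SE 0.18, adjusted p = 8.09e-05), hsa-mir-301a-5p (LFC -0.76, SE 0.15, adjusted p = 0.000346) and hsa-mir-130b-5p (LFC -0.59, SE 0.12, adjusted p = 0.000411). hsa-mir-301a-3p (LFC -0.52, adjusted p = 0.0592) and hsa-mir-454-5p (LFC 0.15, adjusted p = 0.447) did not pass the test. The 2 strands of MIR130B therefore lay on opposite sides, as did the 2 guides of the chromosome 22 pair. These directions depended on scaling, since upper-quartile factors moved the median of all miRNAs by 0.92 and turned hsa-mir-130b-5p to 0.34 (adjusted p = 0.0299) and hsa-mir-301a-5p to 0.17, with hsa-mir-301b-3p at -0.14 (adjusted p = 0.482). Scaling to total counts moved it by -0.34 and left hsa-mir-454-3p at 0.21 (adjusted p = 0.0883) and hsa-mir-130b-3p at 0.19 (adjusted p = 0.332).

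The make-up of the shared seed does not depend on scaling, because it is a share within a library. hsa-mir-454-3p supplied 79.7% ± 1.95 of the summed 3p counts in AsPC-1 controls and 61.7% ± 2.49 in PANC-1 controls (SD, n = 3). hsa-mir-130a-3p supplied 14.6% ± 0.880 in PANC-1 controls and at most 0.0501% in any AsPC-1 control. hsa-mir-130b-3p supplied 14.1% ± 1.47 and 11.1% ± 1.11, and hsa-mir-301b-3p supplied 3.40% ± 0.497 and 8.04% ± 0.661, in AsPC-1 and PANC-1 controls. hsa-mir-301a-3p stayed the smallest part in PANC-1 (4.47% ± 1.16) and the smallest but hsa-mir-130a-3p in AsPC-1 (2.79% ± 0.341). The seed in both lines was thus mostly that of 1 hairpin, MIR454.

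**Figure D2:**
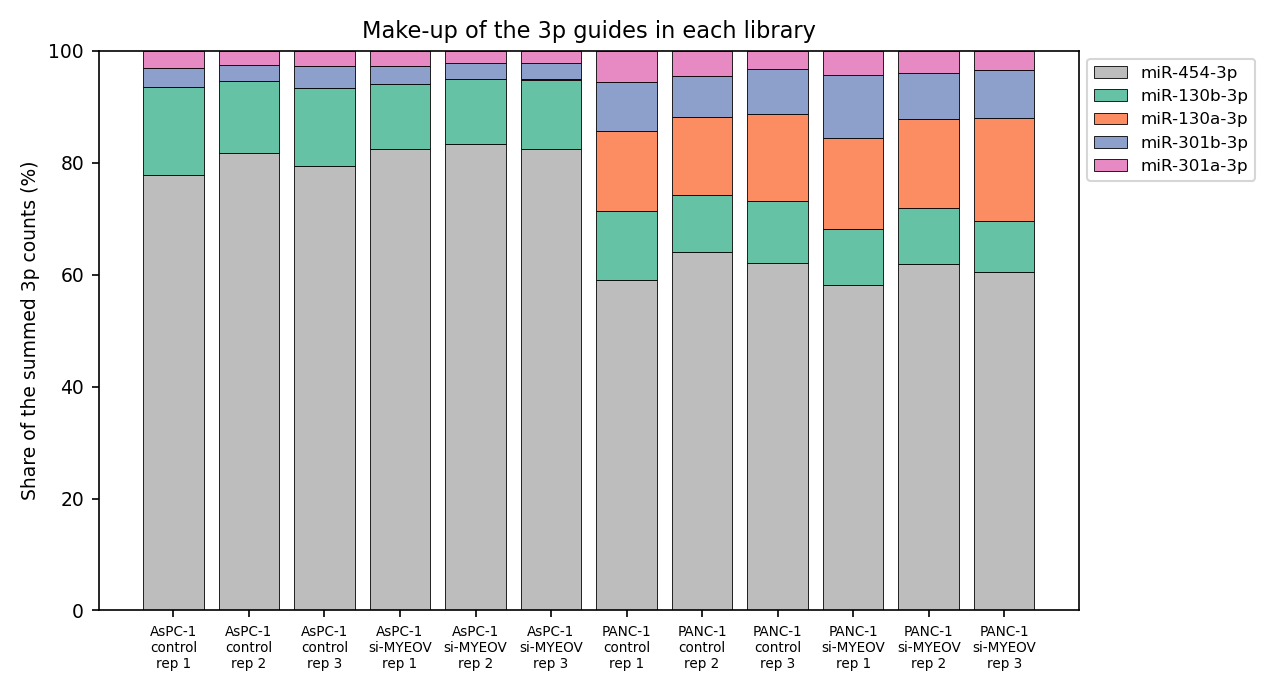
Share of each guide in the summed 3p counts (%, axis from 0 to 100), one stacked bar per library. hsa-mir-454-3p takes 77.8% to 83.3% in the 6 AsPC-1 libraries and 58.2% to 64.1% in the 6 PANC-1 libraries, where hsa-mir-130a-3p adds a band that is barely visible in AsPC-1.

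After MYEOV knockdown in AsPC-1, hsa-mir-301a-5p, the partner strand from the MIR301A hairpin, fell and no other member passed the test. It was at 23.8, 25.2 and 28.5 CPM in the controls and at 15.9, 18.2 and 20.2 CPM in the si-MYEOV libraries. All 3 knockdown libraries were below all 3 controls. The LFC was -0.51 (SE 0.15, 95% interval -0.83 to -0.20), a drop to 0.700 of the control level, with an adjusted p of 0.0337 by edgeR over 498 miRNAs. One of 7 members tested passed, against 11.4% of all miRNAs. Groups did not overlap for 2 of 7 members, hsa-mir-301a-5p and hsa-mir-454-3p, against 30.5% of all, so neither share stood far from the background. The call on hsa-mir-301a-5p was lost when any 1 of 5 libraries was left out (adjusted p = 0.0543 and 0.140 without control replicates 2 and 3, and 0.177, 0.0918 and 0.0661 without si-MYEOV replicates 1, 2 and 3). It held without the control replicate that stood apart (LFC -0.56, adjusted p = 0.00419).

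The guide of the same hairpin, hsa-mir-301a-3p, was at 9.31, 6.79 and 7.41 CPM in AsPC-1 controls and at 7.58, 6.19 and 6.14 CPM after knockdown. Its groups overlapped, and with 34 to 63 counts a library its LFC of -0.24 had an SE of 0.22 (adjusted p = 0.518) and became -0.0891 without the control library that stood apart. hsa-mir-454-3p, from the same SKA2 intron, was at 230, 224 and 216 CPM in controls and 233, 232 and 236 CPM after knockdown. Although these groups did not overlap, the LFC was only 0.07 (95% interval -0.11 to 0.24, adjusted p = 0.653). Its partner hsa-mir-454-5p had an LFC of -0.22 (SE 0.19, adjusted p = 0.489).

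The chromosome 22 members did not pass the test in AsPC-1. hsa-mir-130b-3p was at 46.4, 35.1 and 37.6 CPM in the controls and 33.1, 32.3 and 35.6 CPM after knockdown, and the highest value was that of the control library that stood apart. Its LFC of -0.24 (SE 0.13, adjusted p = 0.283) became -0.10 (adjusted p = 0.568) without that library. hsa-mir-130b-5p (LFC 0.03, SE 0.11, adjusted p = 0.900) became -0.08 without it, and hsa-mir-301b-3p had an LFC of -0.17 (SE 0.19, adjusted p = 0.611). hsa-mir-130a-3p had too few counts to be tested in AsPC-1. Over the 7 members tested the median LFC was -0.22, against -0.0047 over all 498 miRNAs, and 5 of 7 were below 0, against 50.4% of all.

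In PANC-1, no member passed an adjusted p of 0.05 after knockdown (0 of 8, against 22.0% of the 551 miRNAs tested by edgeR). At an unadjusted p under 0.05 there were 2 of 8, hsa-mir-130b-3p and hsa-mir-301a-5p, against 35.8% of all miRNAs, and DESeq2 called 0 members and 97 miRNAs in all. hsa-mir-130b-3p was at 39.4, 28.9 and 31.8 CPM in controls and 25.0, 27.9 and 26.0 CPM after knockdown. Every knockdown library was below every control, and the LFC was -0.34 (95% interval -0.64 to -0.04, adjusted p = 0.0904). Without control replicate 1 it was -0.22 (adjusted p = 0.331). hsa-mir-301a-5p was at 47.3, 63.1 and 47.1 CPM in controls and 41.4, 50.2 and 33.7 CPM after knockdown. These groups overlapped, and the LFC was -0.34 (95% interval -0.63 to -0.06, adjusted p = 0.0802), or -0.18 (adjusted p = 0.470) without control replicate 2.

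hsa-mir-454-3p in PANC-1 was at 189, 184 and 179 CPM in controls and 147, 174 and 175 CPM after knockdown. These groups did not overlap either, and the LFC was -0.15 (95% interval -0.34 to 0.04, adjusted p = 0.243), or -0.0795 (adjusted p = 0.609) without si-MYEOV replicate 1. Groups did not overlap for 2 of 8 members, hsa-mir-130b-3p and hsa-mir-454-3p, against 36.7% of all miRNAs. hsa-mir-301a-3p had an LFC of -0.34 (SE 0.22, adjusted p = 0.257), with 18.04, 12.8 and 9.57 CPM in controls and 10.9, 11.05 and 10.1 CPM after knockdown. The spread of its controls alone took in all 3 knockdown values, and without control replicate 1, the highest, the LFC was -0.10 (adjusted p = 0.772).

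In PANC-1, 4 members had an LFC above 0, and none of these passed the test. They were hsa-mir-130b-5p (LFC 0.17, SE 0.09, adjusted p = 0.164), hsa-mir-130a-3p (LFC 0.10, SE 0.13, adjusted p = 0.595), hsa-mir-301b-3p (LFC 0.08, SE 0.15, adjusted p = 0.760) and hsa-mir-454-5p (LFC 0.02, SE 0.19, adjusted p = 0.937). The median LFC was -0.06 over the 8 members and 0.03 over all 551 miRNAs, and 46.3% of all miRNAs lay below 0. Scaling to total counts shifted all LFCs by a median of -0.15 and called 3 of 8 members, hsa-mir-130b-3p (-0.49), hsa-mir-301a-5p (-0.49) and hsa-mir-454-3p (-0.30), against 143 of 551 miRNAs (26.0%), with the share of all calls that were higher going from 57.9% to 18.2%. hsa-mir-301a-5p was also called without control replicate 1, control replicate 3 or si-MYEOV replicate 2, with adjusted p of 0.00609, 0.0224 and 0.0300.

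**Figure D3:**
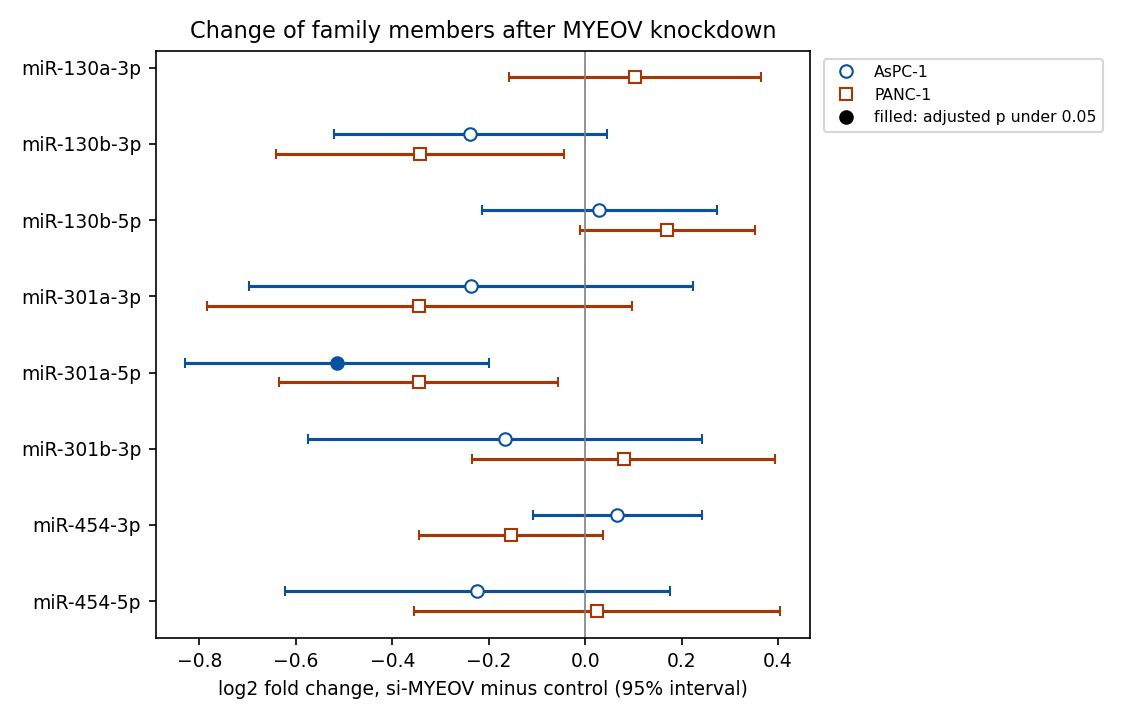
LFC of each member after MYEOV knockdown (x axis, si-MYEOV minus control, log2) with its 95% interval, circles for AsPC-1 and squares for PANC-1. The only filled symbol, an adjusted p under 0.05, is miR-301a-5p in AsPC-1 at -0.51, and miR-130a-3p has no AsPC-1 point because it was not tested there.

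The knockdown effect did not differ detectably between the lines for any of the 7 members above the 3-count limit in both. In one fit over 12 libraries with an interaction term, 0 of these 7 passed an adjusted p of 0.05 by edgeR, against 0.308% of 650 miRNAs, with 0 at an unadjusted p under 0.05 (11.4% of all) and 0 by DESeq2. This fit scales all 12 libraries together, so its differences are not those between the LFCs given above. Their median over all 650 miRNAs was -0.12, and scaling to total counts shifted them by a median of 0.23. For hsa-mir-301a-5p the difference (AsPC-1 minus PANC-1) was -0.27 (95% interval -0.74 to 0.20, adjusted p = 0.681). For hsa-mir-454-3p it was 0.12 (95% interval -0.17 to 0.42, adjusted p = 0.776). Its AsPC-1 mean rose in the fit of that line but went from 263 to 257 CPM here. For hsa-mir-130b-3p the difference was 0.00055 (95% interval -0.37 to 0.37), which depends on the scaling and does not show equal effects. No difference in the effect on hsa-mir-130a-3p could have been seen, because it was at or below the 3-count limit in AsPC-1.

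The strands of 1 hairpin come from 1 precursor, so the share of the 3p strand among 3p and 5p counts shows their balance without any scaling between libraries. Capture can differ between the strands, and reads with other starts are not counted, so this is a balance of counts. The 3p share was strongly tilted in opposite directions. MIR454 gave its 3p guide in 94.8% ± 0.560 of counts in AsPC-1 controls and 93.3% ± 0.527 in PANC-1 controls. MIR130B gave its 3p strand in 17.6% ± 4.52 and 8.94% ± 2.12, and MIR301A in 23.3% ± 4.17 and 20.4% ± 6.20. The 5p strand of these 2 hairpins, which holds the letters UUGCACU in the sequences above, thus had more counts than the seed-carrying strand in all 12 libraries. The 5p count was 4.803 times the 3p count for MIR130B in AsPC-1 controls and 10.4 times in PANC-1 controls. Having the 5p strand higher in every library was common, at 53.5% of the 127 hairpins with both strands tested in AsPC-1 and 47.3% of 150 in PANC-1.

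The MIR130B balance differed between control groups, with 3p shares of 22.8%, 14.3% and 15.7% in AsPC-1 and 11.3%, 7.24% and 8.25% in PANC-1. The shares did not overlap between the groups, although the exact 95% binomial interval of the lowest AsPC-1 library (12.69% to 16.04%) overlapped that of the highest PANC-1 library (9.801% to 12.99%). After knockdown the PANC-1 shares were 6.40%, 6.41% and 6.24%, below all controls, while the AsPC-1 shares of 13.4%, 15.6% and 15.6% overlapped with theirs. On the log2 scale of the 3p to 5p ratio, the PANC-1 change was -0.51 and the AsPC-1 change -0.26. Without control replicate 1 they were -0.30 in PANC-1 and -0.0191 in AsPC-1, where that library was the one that stood apart. Among hairpins with both strands, the groups did not overlap after knockdown for 1 of 4 family hairpins in PANC-1, against 29.3% of all, and for 0 of 3 in AsPC-1, against 29.9% of all. Between control groups it was 2 of 4 (MIR130B and MIR454), against 53.9% of all. The fourth hairpin of these counts was MIR301B, whose 5p strand is not a member. These ratios were described without a test.

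**Figure D4:**
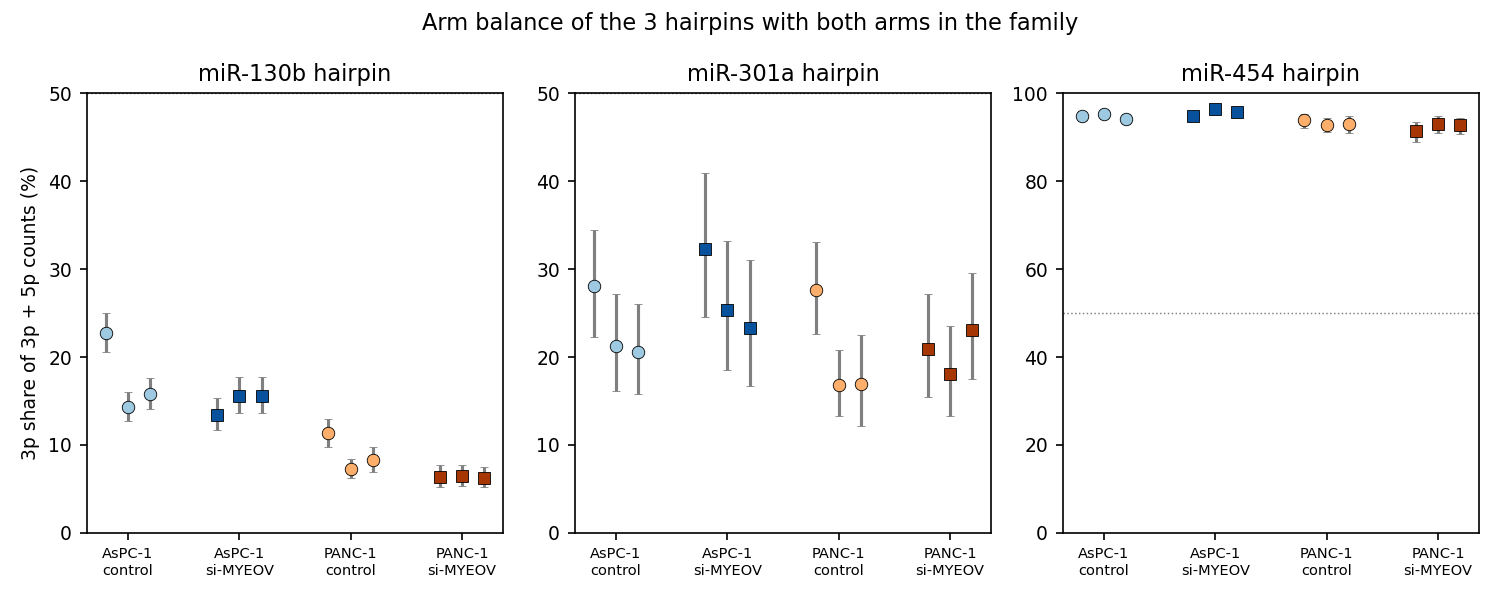
Share of the 3p strand in the 3p plus 5p counts (%) of 3 hairpins, one point per library with its exact 95% binomial interval, with an axis to 50 for miR-130b and miR-301a and to 100 for miR-454. miR-454 stays at 91.4% or more in every library, miR-301a lies between 16.8% and 32.4%, and the PANC-1 si-MYEOV points of miR-130b (6.24% to 6.41%) are the lowest.

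Within the 3p counts, the guides shifted little after knockdown. hsa-mir-454-3p went from 79.7% ± 1.95 to 82.7% ± 0.507 in AsPC-1, with ranges of 77.8% to 81.7% and 82.4% to 83.3%, and from 61.7% ± 2.49 to 60.2% ± 1.86 in PANC-1, where the ranges overlapped. hsa-mir-130b-3p was at 12.8% to 15.7% in AsPC-1 controls and 11.6% to 12.4% after knockdown, and at 10.1% to 12.3% and 8.99% to 9.94% in PANC-1. Its share after knockdown was thus below all controls in both lines. Its level did not pass the edgeR test in AsPC-1 (adjusted p = 0.283) or PANC-1 (adjusted p = 0.0904). Both LFCs were smaller without control replicate 1, as given above. hsa-mir-130a-3p in PANC-1 went from 14.6% ± 0.880 to 16.9% ± 1.33, and its ranges (13.97% to 15.6% and 15.9% to 18.4%) did not overlap. Separate ranges were common by level, at 30.5% (AsPC-1) and 36.7% (PANC-1) of everything tested, and no such background is given for shares. Shares of 1 total move against each other, and they were not tested.

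Related miRNAs outside the family were followed by counts. miR-148a-3p, miR-148b-3p and miR-152-3p hold the first 6 of the 7 seed bases (AGUGCA) placed 1 base later, and miR-19a-3p and miR-19b-3p hold the last 6 (GUGCAA) placed 1 base earlier. None of these 5 holds the whole family seed. In AsPC-1, 0 of these 5 passed the test after knockdown. In AsPC-1 and PANC-1, 11.4% and 22.0% of all miRNAs passed. In PANC-1, 1 of 5 passed, miR-148a-3p, which rose from 630, 762 and 1009 CPM to 1039, 1168 and 1350 CPM (LFC 0.57, SE 0.11, adjusted p = 0.000473 by edgeR). Its LFC in AsPC-1 was -0.10 (adjusted p = 0.807), and the difference between lines did not pass (-0.76, adjusted p = 0.0917). miR-301b-5p, the partner strand of hsa-mir-301b-3p, was tested after knockdown only in PANC-1, where it had 12, 18 and 14 counts in controls and 10, 6 and 12 after knockdown (LFC -0.48, adjusted p = 0.355). The 3 miRNAs whose centred log2 CPM over 12 libraries lay nearest to that of the summed 3p guides were miR-151a-5p, miR-548k and miR-181d-5p, with root mean square differences of 0.0893, 0.10003 and 0.109.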

How the data were processed

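Small RNA libraries of AsPC-1 and PANC-1 cells were analysed from the deposited count of reads per mature miRNA in each of 12 samples, which the authors made from their sequencing reads. Per the methods, trimmed reads were mapped to hg19 with Bowtie and kept if they matched perfectly at 18 to 28 nt. Around each annotated 5′ end (3 nt either way), the most abundant sequence was taken, and all reads starting where it starts were summed, so isoforms with other starts are not in the count. The Bowtie version is not given in the sources used here. A miRNA missing from a sample was set to 0. Samples were grouped by their titles. Counts were tested with edgeR 4.0.16 in R 4.3.3 (TMM factors, filterByExpr with a minimum count of 10, quasi-likelihood F test, BH adjustment over all miRNAs tested, threshold 0.05), within each line, between controls, and for the interaction over 12 libraries. The SE was the LFC divided by the root of F. DESeq2 1.42.0, other scalings, filters, thresholds, a replicate block and leaving out each library were alternatives. The code was tested on simulated data. Depth ran from 3805084 to 7311783 counts per sample, and members with few counts have wide intervals. The text names all 8 members, miRNAs related by seed or hairpin, the marker miRNAs a sum rests on or hides, and the 3 non-members nearest the summed guides, with test values for related miRNAs that passed after knockdown and for a partner strand. The members and lists were chosen with earlier results of these data known. Sequences came from RefSeq tables (GRCh38.p14), and positions from matching hairpins to GRCh37.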

Additional observations from a re-analysis of the deposited data

How the results depend on the processing

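Among alternatives, the AsPC-1 members called went from 1 to 0 at an adjusted p under 0.01, and to 0 to 1 when a library was left out. All AsPC-1 calls went from 57 to 90 at 0.1, 27 at 0.01 and 24 to 102 with a library left out (102 without control replicate 1, 24 without si-MYEOV replicate 1, 31 without si-MYEOV replicate 3). The PANC-1 members called went from 0 to 3 with total counts, 2 at 0.1, and 0 to 1 with a library left out. All PANC-1 calls went from 121 to 53 at 0.01, 67 with 12 libraries in one fit, and 55 to 129 with a library left out (55 without si-MYEOV replicate 3, 68 without si-MYEOV replicate 2). Replicate numbers did not pair the samples: deviations of samples with the same number correlated at -0.16, -0.12 and 0.13 in AsPC-1 and at 0.05, 0.03 and 0.14 in PANC-1, and not every sample correlated best with its own number. With a replicate block, AsPC-1 gave 0 members (hsa-mir-301a-5p adjusted p = 0.0761) and 29 miRNAs in all, PANC-1 gave 1 member (hsa-mir-301a-5p, LFC -0.33, adjusted p = 0.0335) and 153 in all, and the interaction of hsa-mir-301a-3p turned to -0.0387. Signs that turned belonged to LFCs no larger than their SE, except those that turned with upper-quartile factors. In the fit of 12 libraries, AsPC-1 hsa-mir-130b-5p was -0.0697 and hsa-mir-454-3p -0.0330. With total counts, PANC-1 hsa-mir-130a-3p was -0.0454, hsa-mir-301b-3p -0.0666 and hsa-mir-454-5p -0.12, and between lines hsa-mir-454-5p was -0.19. With upper-quartile factors, between lines, hsa-mir-130b-5p was 0.34, hsa-mir-301a-3p 0.41 and hsa-mir-301a-5p 0.17. With no filter, the interactions of hsa-mir-130b-3p and hsa-mir-301a-3p were -0.0332 and -0.0310. With a library left out, AsPC-1 hsa-mir-130b-5p ran from -0.0807 to 0.11, PANC-1 hsa-mir-130a-3p from -0.0120 to 0.18, hsa-mir-301b-3p from -0.0128 to 0.19 and hsa-mir-454-5p from -0.0397 to 0.0773, and the interactions of hsa-mir-130b-3p and hsa-mir-301a-3p from -0.13 to 0.15 and -0.25 to 0.20. The cause of these changes was not tested. Members called stayed at 5 to 7 between lines and at 0 for the interaction under all alternatives run. The count between lines includes hsa-mir-130a-3p, which had to differ, except where 10 counts were asked of every library. In the main fits, 82.8% of all miRNAs passed between lines and 0.308% for the interaction. Counts of 34 to 82 a library for hsa-mir-301a-3p limit what could be seen of the MIR301A guide.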

Other observations

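The summed 3p guides, scaled over the 12 libraries, were at 331 ± 30.3 CPM in AsPC-1 controls and 311 ± 20.7 CPM after knockdown, and at 263 ± 15.5 and 241 ± 15.8 CPM in PANC-1 (SD, n = 3). The summed 5p strands were at 267 ± 25.0 and 243 ± 3.76 CPM in AsPC-1 and at 361 ± 36.5 and 390 ± 23.0 CPM in PANC-1. The guides thus held more of the family's counts than the partner strands in AsPC-1 and fewer in PANC-1, in group means. These sums depend on scaling, with TMM factors of 0.830 to 1.24 in this fit. As a plain share of library counts, the mean of the 3p guides was higher in PANC-1 controls than in AsPC-1 controls. On that scale it hardly changed after knockdown in AsPC-1, and the 5p mean in PANC-1 went slightly down. Sums over members were not tested.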
